A study of Mus musculus with 40 samples.

Results

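In all, 7 symbols of the epidermal growth factor (EGF) receptor system were looked up by name in the aortic RNA-seq tables of a genotype experiment and of a cyclosporin A (CsA) experiment: the ligand genes Hbegf, Areg, Ereg and Tgfa, the receptor gene Egfr, the feedback inhibitor gene Errfi1 and the sheddase gene Adam17. Of these 7, 6 were listed among the 17402 genes of the genotype experiment and 6 among the 15399 of the CsA experiment. Areg was not listed in either table and was not analysed here. All 6 passed into the tests, which covered 14424 and 13741 protein-coding genes.

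In the genotype experiment, male mice with floxed CnB1 (gene symbol Ppp3r1, the regulatory subunit of the Ca2+-activated phosphatase calcineurin, Cn) all received tamoxifen at 1 mg/day for 5 days. They were used 6 weeks after tamoxifen. By their labels the mice either carried no Cre (Cn-Ctl) or carried Myh11-CreERT2, a tamoxifen-inducible Cre driven by a smooth muscle promoter and located on the Y chromosome, and these are labelled SM-Cn-/-. The study's methods also count Cre-carrying mice with unfloxed CnB1 among its controls, whereas the labels of these libraries name only floxed, Cre-negative mice. Mice of both genotypes were untreated or received angiotensin II (Ang-II), a vasoconstrictor peptide, from an osmotic minipump (1 µg/kg/min) over 2, 6 or 24 h. The 22 libraries comprised 3 per group, except for 2 untreated Cn-Ctl libraries and 2 Cn-Ctl libraries at 24 h. In the CsA experiment, male wild-type mice (WT) and mice given CsA, which blocks Cn phosphatase activity, were untreated or received Ang-II at the same dose for 2 or 24 h, with 3 libraries in each of 6 groups. CsA had been given for 5 days by a pump that the WT mice did not carry, so the drug and its pump cannot be told apart. Each library pooled 3 aortas of young adult mice with the adventitia and perivascular tissue removed, and treated Cn-Ctl, WT and CsA mice, but not treated SM-Cn-/- mice, had been selected by the study for raised systolic pressure. The p-values therefore measure the spread between these pools.

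EGF family ligands are made as membrane-anchored precursors, and metalloproteases such as ADAM17 cut them from the cell surface. The freed ligand binds the EGF receptor, a tyrosine kinase that acts through Ras and the MAP kinase cascade to induce immediate early genes. Errfi1 encodes MIG6, which binds the receptor kinase domain and limits its activity. In vascular smooth muscle, the Ang-II type 1 receptor is known to transactivate the EGF receptor through shedding of heparin-binding EGF-like growth factor, the product of Hbegf.

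Values are signal, the normalized expression unit in which the tables were deposited. Libraries held 2728007 to 10250178 assigned reads in the genotype experiment and 18976266 to 38900009 in the CsA experiment. Smooth muscle markers were abundant in every library, with a summed signal of 20899 to 49393 over 7 genes in the genotype experiment and 16292 to 35546 in the CsA experiment. The signal of the targeted gene Ppp3r1 overlapped between genotypes, at 45.7 to 134 in the 10 Cn-Ctl libraries and 41.8 to 118 in the 12 SM-Cn-/- libraries, and no adjusted p for it passed at any time. Gene-level signal also counts transcripts that lack a deleted part, so it could not check the deletion, for which the study tested the mice separately. Libraries are therefore named here as they are labelled, and every difference between genotypes below is a difference between libraries so labelled. In whole aorta, fewer cells of a type and less RNA per cell cannot be told apart.

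Positions are those of GENCODE release 21 on GRCm38. Hbegf is at chr18:36504927-36515805 on the minus strand, Ereg at chr5:91074622-91093646 (+), Tgfa at chr6:86195223-86275719 (+), Egfr at chr11:16752203-16918158 (+), Errfi1 at chr4:150853919-150868892 (+) and Adam17 at chr12:21323509-21373632 (−). Exons of Ereg, Tgfa and Adam17 share 141, 118 and 311 bases with a gene on the opposite strand (3.42%, 1.82% and 4.35% of their exonic length), and the sources used here do not state whether the counting used strand. Hbegf, Egfr and Errfi1 share none with a gene on the opposite strand.

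Errfi1 had the highest level and the largest changes, so its promoter is shown. RefSeq (GRCm38.p6) gives 2 start sites, and the 250 bases before the downstream site, at chr4:150854820-150855069 on the plus strand, hold a full cAMP response element and a TATA box, both in capitals:

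Errfi1 promoter: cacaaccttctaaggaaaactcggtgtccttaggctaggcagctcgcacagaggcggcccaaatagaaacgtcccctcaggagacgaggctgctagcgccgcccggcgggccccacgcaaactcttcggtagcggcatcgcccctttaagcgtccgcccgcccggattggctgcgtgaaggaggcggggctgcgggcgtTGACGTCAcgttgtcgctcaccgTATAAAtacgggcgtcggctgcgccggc

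The cAMP response element, TGACGTCA, lies at −51 to −44 from the start site and is present in 1.55% of the 32851 promoter windows searched. The TATA box, TATAAA, lies at −28 to −23 and is present in 12.4% of them. The window holds no AP-1 site (TGANTCA), no NFAT core (TGGAAA), no full glucocorticoid response element or its AGAACA part, and no CArG box, on either strand. These letters are a description and show no binding. The window lies between exons of Errfi1, and 124 of its bases are an exon of 1700045H11Rik on the minus strand. The window before the upstream Errfi1 start site (chr4:150853546-150853795) and the windows of Tgfa, Egfr and Adam17 held none of the motifs searched. The window of Areg, for which no values were analysed, held the same cAMP response element and TATA box at −61 to −54 and −31 to −26. No promoter entry was found for Hbegf or Ereg.

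Per kilobase of exon, Errfi1 was the most abundant member in untreated aortas, at 17.4 ± 0.463 (SD, n = 2) in Cn-Ctl and 16.7 ± 2.18 (n = 3) in WT. Hbegf followed at 8.17 ± 1.82 in Cn-Ctl and 7.15 ± 0.929 in WT. Adam17 was at 5.18 ± 0.598 and 5.51 ± 0.548, Egfr at 3.66 ± 0.237 and 2.77 ± 0.281, and Ereg at 1.46 ± 0.343 and 2.62 ± 0.359. Tgfa was the lowest, at 0.181 ± 0.0771 and 0.430 ± 0.107. In untreated WT the libraries of Egfr and Ereg overlapped per kilobase, so these neighbours were not apart in the order. At 2 h of Ang-II the order began with Errfi1 (399 ± 81.0 in Cn-Ctl and 315 ± 46.7 in WT, n = 3 each) and Hbegf (59.4 ± 13.8 and 32.1 ± 7.94), and the mean of Ereg stood above those of Egfr and Adam17, at 9.82 ± 1.71 in Cn-Ctl and 6.56 ± 2.13 in WT.

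In Cn-Ctl aortas Hbegf, Ereg and Errfi1 rose at 2, 6 and 24 h, while Egfr, Tgfa and Adam17 did not pass the test at any of these times. At 2 h this was 3 of 6 members higher, against 4.72% of all genes tested, at 6 h 3 against 2.72%, and at 24 h 3 against 3.22%. In SM-Cn-/- aortas only Errfi1 passed, at 2 h (0.984% of all genes higher) and at 6 h (1.50%), and 0 of 6 passed at 24 h by limma (0.79% in either direction), where 0 also had an unadjusted p under 0.05 and 0 passed with edgeR or DESeq2. Some marker sums at 2 h were also apart from untreated. In Cn-Ctl these were adventitial fibroblasts (1594 to 2507 against 779 to 1517) and macrophages (119 to 329 against 78.1 to 112). In SM-Cn-/- they included fibroblasts (1882 to 2251 against 1079 to 1745) and smooth muscle (25366 to 31750 against 20899 to 24367). Later sums were apart from untreated too. In Cn-Ctl these included macrophages (133 to 329 at 6 h and 195 to 280 at 24 h). They also included endothelium (485 to 593 and 461 to 468, against 305 to 422). In SM-Cn-/- endothelium was among those apart at 24 h (1052 to 1132 against 548 to 713). Their part in the changes was not tested.

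Hbegf signal was 33.3 and 45.7 in the untreated Cn-Ctl libraries and 20.4, 24.1 and 19.7 in the untreated SM-Cn-/- libraries. After 2 h it was 345, 302 and 214 in Cn-Ctl and 45.1, 42.5 and 42.3 in SM-Cn-/-. After 6 h it was 121, 230 and 372 against 45.4, 37.0 and 41.5. Every treated Cn-Ctl library at these times stood above every SM-Cn-/- library of the experiment. At 24 h the pair of Cn-Ctl libraries, at 66.8 and 209, lay apart from each other and still above the 24.5, 26.2 and 22.7 of SM-Cn-/-.

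The log2 change of Hbegf in Cn-Ctl was 2.84 ± 0.37 (SE, adjusted p = 2.41e-05) at 2 h and 2.47 ± 0.37 (3.17e-04) at 6 h, 7.14-fold and 5.53-fold. At 24 h it was 1.59 (adjusted p = 0.0226), and this call was lost without either untreated library (1.36 and 1.82), without the 24 h replicate 3 (0.77, adjusted p = 0.455), and in a fit of the compared groups alone (adjusted p = 0.150). In SM-Cn-/- the corresponding values were 1.01 (95% CI 0.32 to 1.70, adjusted p = 0.170) at 2 h, 0.93 (0.24 to 1.63, adjusted p = 0.147) at 6 h and within −0.50 to 0.88 (95% CI) at 24 h. The treated and untreated SM-Cn-/- libraries did not overlap at 2 or 6 h, and the 2 h value passed in a fit of the compared groups alone (adjusted p = 0.0307).

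Between genotypes, Hbegf was 6.45-fold higher in Cn-Ctl at 2 h (log2 2.69 ± 0.33, adjusted p = 2.58e-05), 5.25-fold at 6 h (2.39 ± 0.33, 2.45e-04) and 4.77-fold at 24 h (2.25 ± 0.37, 9.27e-04). The 2 and 6 h differences kept their call under every alternative and without each library in turn. The 24 h difference lost it without the Cn-Ctl replicate 3 at that time (1.43, adjusted p = 0.0732). In untreated aortas the libraries of the genotypes were also apart, with a log2 difference of 0.86 ± 0.37 that did not pass (adjusted p = 0.890), and the summed smooth muscle markers were apart too, at 28570 and 29158 in Cn-Ctl against 20899 to 24367. The part of cell composition in the genotype differences of Hbegf and of the other members was not tested. At 2 h the smooth muscle sums overlapped, at 27390 to 35581 against 25366 to 31750, with 2 of 7 of these markers higher in Cn-Ctl. At 6 h these sums were apart (32247 to 33902 against 23158 to 28994), and at 24 h they overlapped (27325 to 49393 against 24591 to 27367). The endothelial sums were lower in every untreated Cn-Ctl library, at 305 to 422 against 548 to 713. They were also lower in every Cn-Ctl library at 2 h, at 292 to 531 against 645 to 839 (1 of 6 markers called). The same held at 24 h, at 461 to 468 against 1052 to 1132 (2 of 6), whereas they overlapped at 6 h (485 to 593 against 576 to 1288). The difference in response itself was 1.83 ± 0.50 at 2 h (adjusted p = 0.149), 1.53 ± 0.50 at 6 h (0.545) and 1.40 ± 0.53 at 24 h (0.291), so a larger response in Cn-Ctl did not pass its own test. It passed at 2 h with DESeq2 (1.87, adjusted p = 0.0278) and in the fit of the compared groups alone (0.00768), and at 24 h without the Cn-Ctl 24 h replicate 2 (2.21, adjusted p = 0.0185), while without other libraries the 24 h value went down to 0.58.

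Ereg, which encodes epiregulin, started from a low level of 5.02 and 7.03 in untreated Cn-Ctl and 8.88, 6.00 and 3.71 in untreated SM-Cn-/-. At 2 h the Cn-Ctl libraries held 42.0, 32.9 and 46.8 and the SM-Cn-/- libraries 23.0, 15.1 and 11.7, with no overlap between the genotypes. At 24 h it was 20.6 and 37.9 against 12.5, 7.18 and 10.6. The rise in Cn-Ctl was 2.65 ± 0.41 on the log2 scale at 2 h (adjusted p = 1.87e-04), 1.92 ± 0.41 at 6 h (0.00896) and 2.14 ± 0.45 at 24 h (0.00661). The 6 and 24 h calls were lost in a fit of the compared groups alone (adjusted p = 0.0684 and 0.0704) and without the untreated replicate 2 (1.69 and 1.92), the latter also without the 24 h replicate 3 (1.71).

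In SM-Cn-/- the change of Ereg at 2 h was 1.37 (95% CI 0.60 to 2.14, adjusted p = 0.0818), and it passed with DESeq2 (1.39, adjusted p = 0.0244) and without the untreated replicate 1 (1.66). Cn-Ctl exceeded SM-Cn-/- by 1.30 ± 0.37 at 2 h, just outside the threshold (adjusted p = 0.0529), and inside it under several alternatives, with adjusted p between 0.0121 and 0.0468. At 24 h the difference of 1.46 ± 0.41 passed (adjusted p = 0.0434), but without the Cn-Ctl replicate 3 it was 1.03 (adjusted p = 0.495), and without any single SM-Cn-/- library it was 1.25 to 1.62 and did not pass. The differences in response of 1.28 at 2 h, 1.00 at 6 h and 1.44 at 24 h did not pass (adjusted p = 0.547, 0.858 and 0.345).

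**Figure D1:**
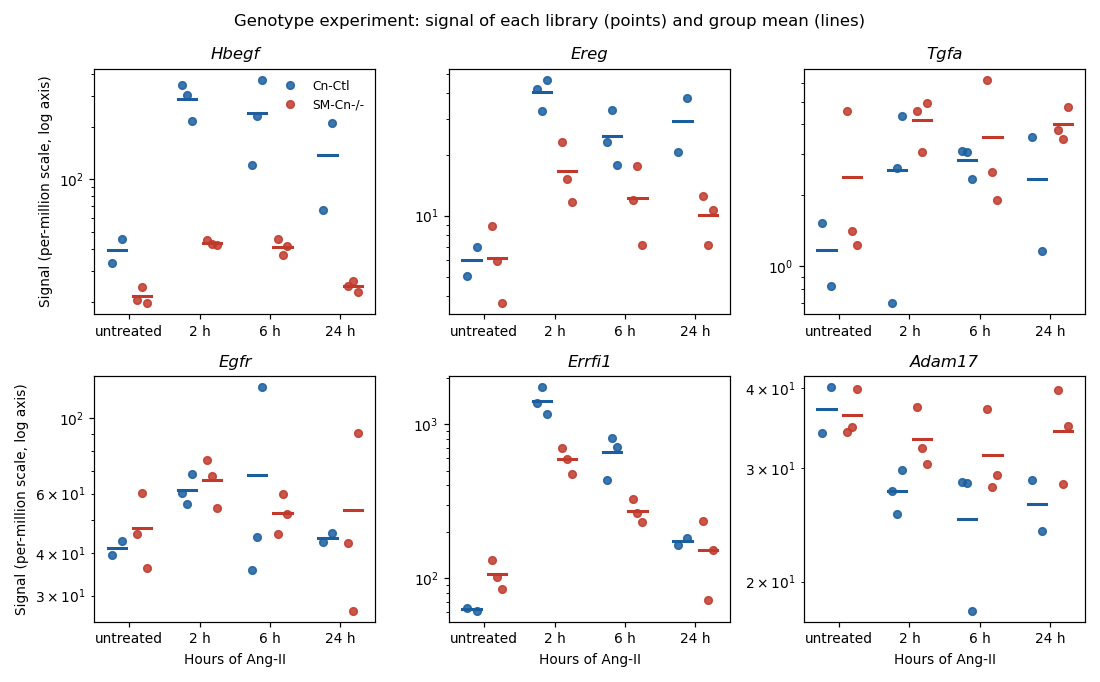
Signal of the 6 members in each library of the genotype experiment (points) with group means (lines), on log axes, against hours of Ang-II. All Hbegf points of treated Cn-Ctl (66.8 or higher) lie above all SM-Cn-/- points (45.4 or lower), whereas Errfi1 rises in both genotypes and Egfr and Adam17 overlap between them.

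Errfi1 rose in both genotypes and fell back with time. In untreated aortas it was 63.6 and 61.2 in Cn-Ctl and 131, 101 and 84.6 in SM-Cn-/-, higher in each library of the latter. The order was the opposite at 2 h, with 1374, 1742 and 1170 in Cn-Ctl and 701, 599 and 474 in SM-Cn-/-. At 6 h it was 434, 821 and 716 against 326, 264 and 231. At 24 h the genotypes overlapped, at 163 and 183 against 236, 71.4 and 151.

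These values gave a rise of 4.49 ± 0.34 on the log2 scale at 2 h in Cn-Ctl (22.4-fold, adjusted p = 2.58e-08) and of 2.48 ± 0.30 in SM-Cn-/- (5.59-fold, adjusted p = 1.39e-04). At 6 h the rises were 3.34 ± 0.34 (7.07e-06) and 1.38 ± 0.30 (0.0177), and at 24 h 1.46 ± 0.37 (0.0222) and 0.39 ± 0.30 (0.689). The 24 h call in Cn-Ctl was lost without the untreated replicate 2 or 3 or the 24 h replicate 3 (1.38 to 1.49), and the 6 h call in SM-Cn-/- without the untreated replicate 3 (1.23) or the 6 h replicate 2 (1.40).

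Errfi1 was 2.41-fold higher in Cn-Ctl than in SM-Cn-/- at 2 h (log2 1.27 ± 0.30, adjusted p = 0.0178) and 2.34-fold at 6 h (1.23 ± 0.30, adjusted p = 0.0360). The untreated difference of −0.73 ± 0.34 did not pass (adjusted p = 0.949). The 2 h call was lost under quantile normalization (0.86, adjusted p = 0.169) and without Cn-Ctl replicate 1 or 2 or SM-Cn-/- replicate 2 or 3 of that time (1.12 to 1.29). The 6 h call was lost under quantile normalization (1.06, adjusted p = 0.0787), with the compared groups alone (0.104) and without replicate 2 or 3 of either genotype (1.04 to 1.21).

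The response of Errfi1 exceeded that of SM-Cn-/- in Cn-Ctl by 2.00 ± 0.46 at 2 h, at the edge of the threshold (adjusted p = 0.0483), by 1.96 ± 0.46 at 6 h (0.226) and by 1.07 ± 0.48 at 24 h (0.418). It was the only member of 6 whose difference in response passed at 2 h, where 0.492% of all genes passed in that direction. At 6 and 24 h 0 of 6 passed by limma and edgeR (0.0624% and 0.513% of all genes by limma), while 2 and 3 had an unadjusted p under 0.05 and DESeq2 called 1 at 6 h, Errfi1, and 0 at 24 h. The 2 h call was lost under quantile normalization (1.65, adjusted p = 0.203), with every gene of the table (0.0526), with edgeR (0.0718) and without 9 of the 11 libraries in turn (1.84 to 2.13), the exceptions being Cn-Ctl replicate 3 at 2 h and untreated SM-Cn-/- replicate 3.

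Of the members, 2 passed between genotypes at 2 h (Hbegf and Errfi1, against 2.97% of all genes higher in Cn-Ctl), 2 at 6 h (the same pair, against 1.44%) and 2 at 24 h (Hbegf and Ereg, against 2.68%). In untreated aortas 0 of 6 passed by limma (0.0139% of all genes), with 2 at an unadjusted p under 0.05, Hbegf and Errfi1, in opposite directions.

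Egfr, the receptor, ranged from 27.1 to 123 over the genotype experiment and overlapped between genotypes at every time. In Cn-Ctl it was 39.5 and 43.3 untreated and 60.3, 56.0 and 68.4 at 2 h, with no overlap, yet the change of 0.56 did not pass (95% CI −0.28 to 1.41). At 6 h the value of 123 in replicate 3 stood against 35.7 and 44.7 in the others, and the log2 change of 0.49 became −0.051 without it. In SM-Cn-/- it was 45.5, 60.3 and 36.3 untreated and 75.6, 67.6 and 54.5 at 2 h. The 2 h difference between genotypes had a 95% CI of −0.85 to 0.67.

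Adam17, the sheddase, was 34.0 and 40.1 in untreated Cn-Ctl and 27.6, 25.5 and 29.8 at 2 h, 28.6, 28.5 and 18.02 at 6 h and 28.8 and 23.9 at 24 h, lower in every treated library. In SM-Cn-/- the untreated values of 34.1, 34.8 and 39.9 overlapped those at each time of Ang-II. The log2 changes of −0.42, −0.58 and −0.48 in Cn-Ctl did not pass (adjusted p = 0.352, 0.181 and 0.293). Tgfa, which encodes transforming growth factor α, held only 3 to 51 reads per library and 0.698 to 6.19 in signal, and none of its differences passed. In Cn-Ctl its 6 h libraries (3.07, 3.04 and 2.35) all lay above the untreated ones (1.53 and 0.821), at 7 to 19 reads against 4 to 10.

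**Figure D2:**
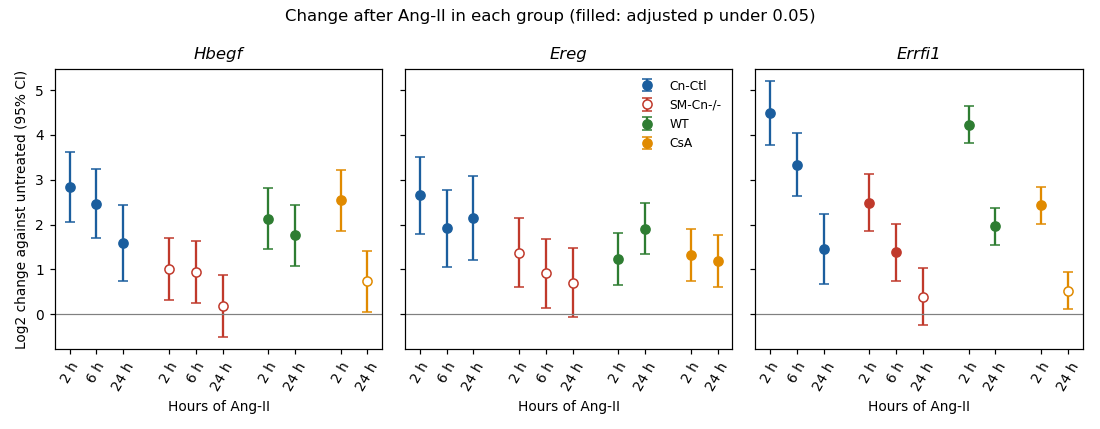
Log2 change of Hbegf, Ereg and Errfi1 after Ang-II against untreated aortas of the same group, with 95% confidence intervals from limma; filled points passed an adjusted p of 0.05. In Errfi1 the change at 2 h is 4.49 in Cn-Ctl and 4.23 in WT against 2.48 in SM-Cn-/- and 2.43 in CsA.

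In the CsA experiment more genes passed in general, so counts of members carry less. In WT at 2 h, 4 of 6 members rose (Hbegf, Ereg, Errfi1 and Egfr, against 11.4% of all genes) and Adam17 fell (against 10%). At 24 h 5 rose, these 4 and Tgfa (against 18.1%), and Adam17 again fell (16.9%). Cell markers moved with these 24 h changes: 6 of 6 macrophage markers were higher than in untreated WT (summed signal 242 to 356 against 92.6 to 135), 2 of 6 endothelial and 2 of 6 adipose markers were higher, and 3 of 7 smooth muscle markers were lower. Their part in the changes was not tested. In CsA-pretreated mice Hbegf, Ereg and Errfi1 rose at 2 h (12.3% of all genes), and at 24 h Ereg rose (5.20%) and Adam17 fell (3.77%).

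Errfi1 was 51.2, 61.3 and 66.6 in untreated WT and 119, 97.7 and 72.0 in untreated CsA. At 2 h it was 1171, 943 and 1270 in WT and 409, 617 and 532 in CsA, and at 24 h 227, 285 and 192 against 120, 139 and 150. The groups did not overlap at any time, and as between the genotypes the untreated order was the opposite of that at 2 h. The rise at 2 h was 4.23 ± 0.19 on the log2 scale in WT (18.7-fold, adjusted p = 3.95e-09) and 2.43 ± 0.19 in CsA (5.41-fold, adjusted p = 3.73e-06). At 24 h it was 1.96 ± 0.19 in WT (3.05e-06) and 0.52 (95% CI 0.11 to 0.93, adjusted p = 0.103) in CsA.

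CsA exceeded WT in Errfi1 by 0.66 ± 0.19 in untreated aortas (adjusted p = 0.0210) and was below it by −1.13 ± 0.19 at 2 h (0.0145) and −0.77 ± 0.19 at 24 h (0.0313). The untreated call was lost without WT replicate 1 or CsA replicate 1 or 2 (0.50 to 0.64). The 2 h call was lost under quantile normalization (−0.79, adjusted p = 0.0602), with the compared groups alone (0.108) and without WT replicate 1 or 3 or CsA replicate 1 (−1.10 to −0.97). The 24 h call was lost with the compared groups alone (0.107) and without WT or CsA replicate 1 or 2 (−0.79 to −0.62).

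The difference between the Errfi1 responses of CsA and WT was −1.79 ± 0.27 at 2 h (adjusted p = 0.0400) and −1.43 ± 0.27 at 24 h (0.00758). At 2 h 1 of 6 members passed, where 0.124% of all genes did in that direction, and at 24 h 1 of 6, where 4.89% did. The 2 h call was lost under quantile normalization (−1.50, adjusted p = 0.0699) and without 7 of 12 libraries in turn, all with an adjusted p between 0.0514 and 0.146: WT untreated replicates 1 and 2, WT 2 h replicates 1 and 3, CsA untreated replicate 2 and CsA 2 h replicates 1 and 3. The 24 h call was kept under all 9 alternatives and without each of the 12 libraries (−1.63 to −1.27).

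Untreated CsA aortas differed from untreated WT in cell markers. All 7 smooth muscle markers were lower (summed signal 16292 to 18338 against 25639 to 35127), and 6 of 6 endothelial markers (930 to 1073 against 358 to 597), 6 of 6 macrophage markers (243 to 316 against 92.6 to 135) and 5 of 6 adipose markers (2448 to 3831 against 497 to 961) were higher. These sums moved together with every difference that involves the untreated CsA group, and their part in it was not tested. At 2 h none of the markers of these cell types passed between CsA and WT by limma, and at 24 h 1 macrophage marker did, lower in CsA. The 2 h sums were still apart for smooth muscle (20022 to 25876 in CsA against 28291 to 35546 in WT) and endothelium (764 to 953 against 539 to 597). Adipose sums were apart at 2 h (1416 to 3904 against 750 to 1360) and at 24 h (1685 to 4556 against 1220 to 1516). The other sums of these cell types overlapped at those times. Their part in the differences after Ang-II was not tested.

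**Figure D3:**
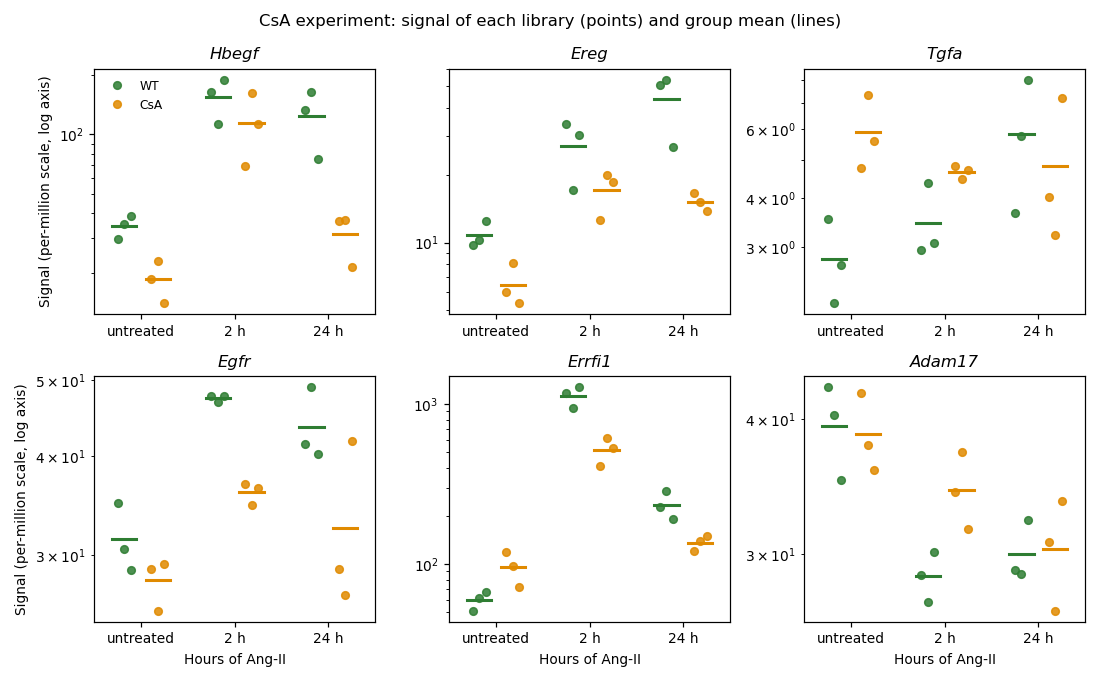
Signal of the 6 members in each library of the CsA experiment (points) with group means (lines), on log axes, against hours of Ang-II. Hbegf overlaps between WT and CsA at 2 h but not at 24 h, and Errfi1 is apart at all times, with CsA above WT untreated and below WT after Ang-II.

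Hbegf was 29.7, 35.5 and 38.5 in untreated WT and 18.6, 22.9 and 14.1 in untreated CsA. After 2 h both groups overlapped, at 164, 114 and 189 in WT against 69.7, 161 and 113 in CsA. At 24 h they did not, at 133, 164 and 75.1 against 36.4, 36.9 and 21.3. The rise at 2 h was 2.13 ± 0.32 in WT (4.37-fold, adjusted p = 2.09e-04) and 2.54 ± 0.32 in CsA (5.82-fold, adjusted p = 9.94e-05). At 24 h it was 1.76 ± 0.32 in WT (5.27e-04) and 0.74 (95% CI 0.06 to 1.42, adjusted p = 0.157) in CsA.

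CsA aortas held less Hbegf than WT by −0.90 ± 0.32 before Ang-II, at the threshold (adjusted p = 0.05003), and this passed under several alternatives (adjusted p from 0.00678). At 2 h the difference was −0.49 (95% CI −1.17 to 0.19, adjusted p = 0.428). At 24 h Hbegf was 3.80-fold lower in CsA (log2 −1.93 ± 0.32, adjusted p = 0.00470), which was kept without each library in turn and lost with the compared groups alone (0.0732). The difference in response at 2 h had a 95% CI of −0.55 to 1.37 (adjusted p = 0.713), and at 24 h it was −1.03 ± 0.45 (adjusted p = 0.159).

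Ereg was 9.72, 10.2 and 12.5 in untreated WT and 5.99, 8.09 and 5.37 in untreated CsA. It reached 33.9, 17.2 and 30.2 in WT at 2 h and 50.7, 53.5 and 26.7 at 24 h. In CsA it was 12.6, 20.1 and 18.6 at 2 h and 16.7, 15.1 and 13.9 at 24 h, with every treated library above the untreated ones. The rises were 1.24 ± 0.27 and 1.91 ± 0.27 in WT (adjusted p = 0.00371 and 6.8e-05) and 1.33 ± 0.27 and 1.19 ± 0.27 in CsA (0.00345 and 0.0144). The CsA call at 24 h was lost without CsA replicate 1, untreated or treated (1.15 and 1.12).

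At 24 h Ereg was 2.69-fold lower in CsA than in WT (log2 −1.43 ± 0.27, adjusted p = 0.00937), a call lost without WT replicate 2 (−1.25, adjusted p = 0.0712) and with the compared groups alone (0.0806). At 2 h the difference of −0.62 ± 0.27 did not pass (0.237). The 95% CI of the difference in response was −0.72 to 0.90 at 2 h and −1.53 to 0.09 at 24 h, and neither passed. Between CsA and WT, 2 of 6 members differed in untreated aortas (Errfi1 and Tgfa, both higher in CsA, against 13.9% of all genes), 1 at 2 h (Errfi1, lower, against 0.939%) and 3 at 24 h (Hbegf, Ereg and Errfi1, all lower, against 3.54%).

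**Figure D4:**
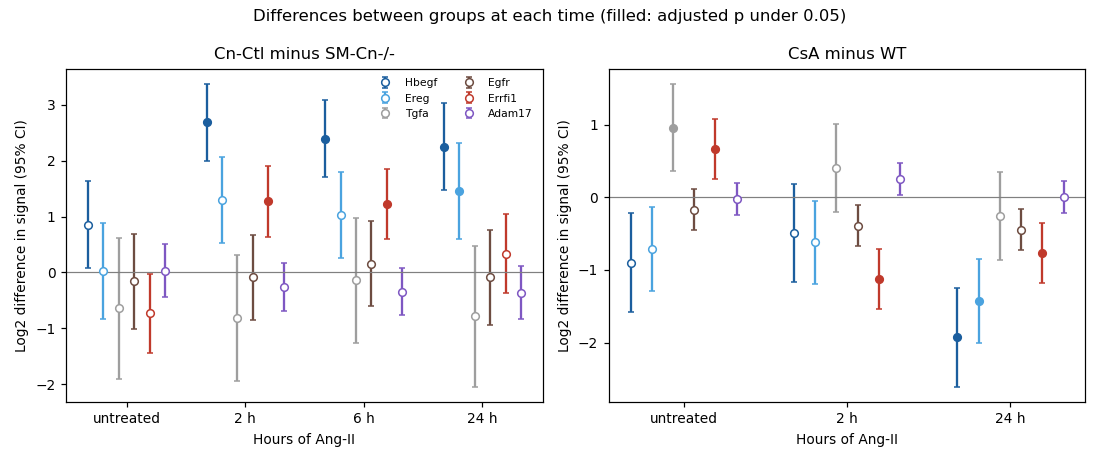
Log2 differences in signal between Cn-Ctl and SM-Cn-/- (left) and between CsA and WT (right) at each time, with 95% confidence intervals from limma; filled points passed an adjusted p of 0.05. Hbegf lies at 2.69, 2.39 and 2.25 on the left at 2, 6 and 24 h, and on the right at −0.49 at 2 h and −1.93 at 24 h.

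Small changes of the receptor and the sheddase passed in WT. Egfr was 34.9, 30.6 and 28.7 untreated, 47.7, 46.8 and 47.7 at 2 h (log2 0.59 ± 0.13, adjusted p = 0.00436) and 41.5, 48.9 and 40.3 at 24 h (0.47 ± 0.13, adjusted p = 0.0125, lost without untreated replicate 3 or 24 h replicate 2, at 0.41 and 0.38). In CsA it was 28.8, 25.5 and 29.2 untreated and 36.9, 34.7 and 36.5 at 2 h, without overlap, and the change of 0.37 ± 0.13 did not pass (adjusted p = 0.0613) except with DESeq2 (0.0406) and with the compared groups alone (0.0465). All CsA libraries at 2 h lay below all WT libraries, by −0.39 ± 0.13 (adjusted p = 0.134).

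Adam17 was 42.8, 40.3 and 35.1 in untreated WT, 28.7, 27.1 and 30.1 at 2 h and 29.0, 28.8 and 32.3 at 24 h, lower in every treated library. The changes of −0.45 ± 0.10 and −0.38 ± 0.10 passed (adjusted p = 0.00535 and 0.00940) and kept their call without each library in turn. In CsA it was 42.3, 37.9 and 35.9 untreated, 34.3, 37.3 and 31.6 at 2 h and 30.8, 26.6 and 33.6 at 24 h. The 2 h change of −0.17 did not pass (adjusted p = 0.262), and the 24 h change of −0.35 ± 0.10 was close to the threshold (0.0474), lost under 4 of 9 alternatives and without 5 of 6 libraries, the exception being the 24 h replicate 3 (−0.43).

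Tgfa was low but measured in every library, at 2.15 to 8.03 in signal. It was higher in untreated CsA (4.76, 5.60 and 7.36) than in untreated WT (2.15, 2.70 and 3.53), by 0.96 ± 0.29 (adjusted p = 0.0224), a call lost under quantile normalization (0.61, adjusted p = 0.0808) and without replicate 2 or 3 of either group (0.80 to 0.99). In WT it rose by 0.90 ± 0.29 at 24 h (0.0220), a call lost without replicate 2 or 3 of either group (0.65 to 0.89). After Ang-II the mean of CsA fell short of its untreated level, with changes of −0.29 and −0.32 that did not pass, and the difference in response at 24 h was −1.22 ± 0.40 (adjusted p = 0.0669).

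Errfi1 was the member that fell most between 2 and 24 h of Ang-II, in all 4 series. Its log2 level changed by −3.03 ± 0.34 (Cn-Ctl), −2.09 ± 0.30 (SM-Cn-/-), −2.27 ± 0.19 (WT) and −1.91 ± 0.19 (CsA), with adjusted p of 9.01e-04 or lower. Hbegf fell in CsA (−1.80 ± 0.32, adjusted p = 0.00156), whereas in WT its change was −0.37 (95% CI −1.04 to 0.31). In Cn-Ctl the fall of Hbegf, −1.25 ± 0.37 (adjusted p = 0.0438), was lost under 4 of 9 alternatives and without the 24 h replicate 2 (−0.43) or the 2 h replicate 1 or 2 (−1.10 and −1.20). Ereg did not pass in any series, and in WT its mean went the other way, by 0.67 ± 0.27 (adjusted p = 0.0644). From 2 to 24 h 2 of 6 members fell in Cn-Ctl (5.43% of all genes), 1 in SM-Cn-/- (1.60%), 2 in CsA (10.6%) and 1 in WT (19.1%). Between 2 and 6 h 0 of 6 passed by limma in either genotype (1.67% and 1.41% of all genes), although Errfi1 had an unadjusted p of 0.00106 (Cn-Ctl) and 0.00152 (SM-Cn-/-) and passed in both with DESeq2 and with the replicate number as a block.

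The rest of the pathway was followed with 9 lists of genes. The 11 immediate early genes that growth factors induce had the largest median change of the lists at 2 h in WT, CsA and Cn-Ctl. At 2 h 11 of 11 rose in WT, 9 in CsA, 6 in Cn-Ctl and 0 in SM-Cn-/-, against 11.4%, 12.3%, 4.72% and 0.984% of all genes. In SM-Cn-/- the median log2 change was −0.09 by limma, against 2.40, 1.47 and 1.98 in the other groups. In SM-Cn-/- 1 of them had an unadjusted p under 0.05, and edgeR and DESeq2 also called 0. The medians over all genes lay between −0.02 and 0.02. Fos, a subunit of AP-1, went from a mean signal of 29.2 to 556 in WT and from 17.4 to 93.6 in CsA, and from 22.1 to 280 in Cn-Ctl against 17.6 to 16.3 in SM-Cn-/-. Its difference in response passed between the genotypes (3.54 ± 0.64, adjusted p = 0.0101), as did those of Fosb (4.70 ± 0.73) and Myc (4.27 ± 0.73). Between CsA and WT the difference in response of Fos at 2 h, −2.02 ± 0.74, did not pass by limma (adjusted p = 0.262). By limma none of the 11 genes passed in that comparison, where 0.124% of all genes were lower. The estimates were nevertheless negative for all of them but Egr3 (0.18). Nearest the threshold were Junb (−1.78 ± 0.35, adjusted p = 0.0675) and Ier2 (−1.01 ± 0.22, adjusted p = 0.0776). At 24 h Myc, a growth-promoting transcription factor, remained higher in WT by 3.39 ± 0.33 and its response was smaller in CsA by −2.32 ± 0.46 (adjusted p = 0.00900).

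Of the 9 feedback inhibitors of ERK signalling, Dusp5, a nuclear ERK phosphatase, passed in 10 of the 28 comparisons. Its mean signal went from 4.005 to 14.2 at 2 h and 18.8 at 24 h in WT, and from 3.48 to 7.94 and 3.86 in CsA. It rose from 3.69 to 16.5 at 2 h in Cn-Ctl and stood at 3.03 and 2.51 in SM-Cn-/-, with Cn-Ctl higher by 2.57 ± 0.49 at 2 h (adjusted p = 0.00290). The sprouty genes Spry1, Spry2 and Spry4, which restrain receptor tyrosine kinase signalling, rose at 2 and 24 h in WT. In all, 4 of 9 rose in WT at 2 h and 6 at 24 h, 3 and 1 in CsA, 2 and 0 in Cn-Ctl, and 0 and 0 in SM-Cn-/- by limma, edgeR and DESeq2 (3 and 1 at an unadjusted p under 0.05 in limma), while 1, Dusp4, fell in CsA at 24 h. The shares of all genes that rose at 2 h were 11.4% in WT, 12.3% in CsA, 4.72% in Cn-Ctl and 0.984% in SM-Cn-/-. At 24 h they were 18.1% in WT, 5.2% in CsA and 3.22% in Cn-Ctl, and 0.79% moved in either direction in SM-Cn-/-.

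Among the other ligands, 4 of 7 were measured, and none rose in any response to Ang-II by limma, edgeR or DESeq2. Btc, which encodes betacellulin, fell in WT from 18.5 to 11.96 at 2 h and 6.69 at 24 h (log2 −1.44 ± 0.20, adjusted p = 6.1e-05) and in Cn-Ctl from 20.3 to 5.96 at 24 h (−1.66 ± 0.49, adjusted p = 0.0466). In CsA it was 12.9 untreated and 12.5 at 24 h, and the difference in response passed (1.42 ± 0.29, adjusted p = 0.00965). Btc thus moved in the opposite direction to Ereg in WT and Cn-Ctl.

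Of the 10 shedding genes measured, Adam19, a metalloprotease, went from 25.1 to 62.2 in WT and from 17.1 to 57.1 in Cn-Ctl at 24 h (1.26 ± 0.29 and 1.61 ± 0.37, adjusted p = 0.00311 and 0.0113), and from 17.1 to 19.9 in CsA and 26.9 to 22.8 in SM-Cn-/-. The 24 h difference in response of Adam19 between CsA and WT, −1.07 ± 0.41, did not pass (adjusted p = 0.109). Adam12 rose from 3.86 to 42.6 in WT (3.26 ± 0.33, adjusted p = 3.62e-06), while it was already at 24.9 in untreated CsA and at 20.1 after 24 h. The difference in response of Adam12 between CsA and WT passed at 24 h (−3.545 ± 0.465, adjusted p = 0.0032). Of the receptor-level inhibitors 6 of 11 rose in WT at 2 h (11.4% of all genes) and 5 in CsA (12.3%), among them Ptprj, a receptor phosphatase (1.14 and 0.81), which also rose in Cn-Ctl (1.44) and SM-Cn-/- (1.52). Src, the kinase placed upstream of ligand shedding, rose at 2 h in WT, CsA and Cn-Ctl by 0.50 ± 0.13, 0.67 ± 0.13 and 1.06 ± 0.27, and was lower in CsA than in WT at every time, by −0.78 untreated. Among 10 adaptors and GTPases, Gab1, a docking adaptor, fell at 2 h in Cn-Ctl (53.6 to 24.8), WT (50.0 to 28.3) and CsA (39.7 to 27.6), with log2 changes of −1.09, −0.81 and −0.51, and its mean was 37.1 and 37.8 in SM-Cn-/-. Of 7 MAP kinase genes 2 rose at 2 h in WT and 2 in CsA (11.4% and 12.3% of all genes), and none of the 3 other ERBB receptors passed at 2 h in any group by limma, edgeR or DESeq2, with 0 at an unadjusted p under 0.05 in limma.

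**Figure D5:**
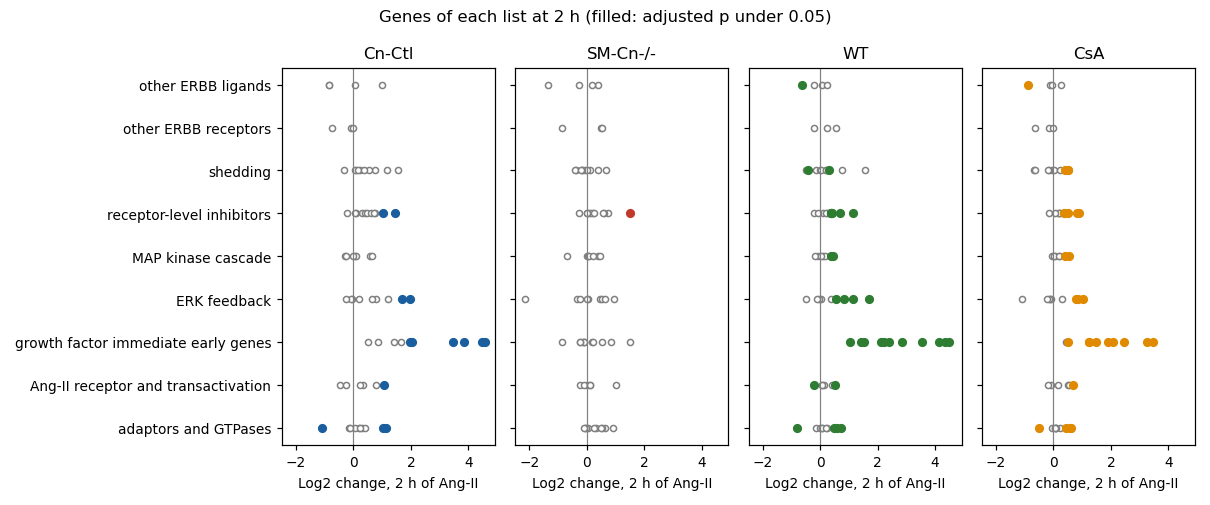
Log2 change at 2 h of Ang-II of every measured gene of the 9 lists (rows) in each group (panels); filled points passed an adjusted p of 0.05. The row of growth factor immediate early genes extends to 4.59 in Cn-Ctl and 4.47 in WT and is centred at −0.09 in SM-Cn-/-.

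The genes whose course was most like that of each member were found over the 18 libraries of the CsA experiment, by the root mean square difference in log2 signal relative to untreated WT. Nearest to Hbegf were Cryab, a small heat shock protein gene (0.403), and Tnfrsf12a (0.421), of 11524 genes compared. In the 22 libraries of the genotype experiment Cryab was again the nearest gene to Hbegf (0.449, of 11729 genes), and Tnfrsf12a ranked 30. Nearest to Errfi1 were Tnfaip6 (0.517), Nfil3 (0.529) and Hspb1 (0.634), with Tnfaip6 again nearest in the genotype experiment (0.758). Ereg was nearest to Tubb6, Slc7a1 and Tpm4 (0.364 to 0.398), which ranked 573, 135 and 113 in the genotype experiment. Egfr was nearest to Sap18b, Taf5l and Stk40 (0.163 to 0.175), which ranked 9256, 4374 and 2104 there. Adam17 was nearest to 2210418O10Rik, Crebzf and Neurl4 (0.112 to 0.121), which ranked 454, 348 and 7727. For Tgfa they were Pnp, Rftn1 and Lgals9 (0.209 to 0.240). These had no rank, as Tgfa had no group mean of at least 5 in the genotype experiment. Libraries share their scaling within a table, and these distances are a description.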

How the data were processed

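Total aortic RNA was sequenced from oligo-dT libraries, each of 3 pooled aortas. The authors deposited 1 table of normalized signal per experiment, with Bowtie 0.12.7 and RSEM 1.16 named in the submitters' processing notes. Columns of this deposited signal summed to 919723 to 1.18e+06 in the genotype experiment and 877583 to 1.15e+06 in the CsA experiment, and the step that scaled them is not given in the sources used here. In every library 100% of values converted to whole reads within 0.01, and these reads give the depths. An untreated Cn-Ctl replicate had been discarded by the authors.

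Protein-coding genes by GENCODE release 21 (GRCm38) were tested, leaving out 2952 and 1643 genes of another biotype and 26 and 15 with no match in the annotation. limma 3.58.1 (R 4.3.3; lmFit, eBayes with a trend) was fitted per experiment on log2(signal + 0.5), with a mean per group and all groups in 1 model, for 28 comparisons. Fold changes are on that scale, which understates changes of low genes. Benjamini-Hochberg adjusted p under 0.05 over all genes of a comparison was the threshold, all tests being two-sided, and adjusted p given without another tool are from limma. On simulated data with 200 changed genes the fit recovered 57.5% for Cn-Ctl at 2 h and 90.5% for WT at 2 h. Alternatives were pseudocounts of 0.1 and 1, quantile normalization, every gene of the table, a mean signal of at least 5, the compared groups alone, edgeR 4.0.16 and DESeq2 1.42.0 on the recovered reads, a replicate block, and each library left out. Where that left 1 library in a group, it was assumed to vary like the other groups.

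The members and lists were chosen with earlier results of these data known. Of a list, genes past the threshold in the most comparisons or with the largest change are named. For each member the 3 genes with the smallest root mean square difference over the CsA experiment are its nearest, among genes with a mean signal of at least 5 in a group. Of these, 1 is not reported here. Promoter motifs were searched on both strands of the 250 bases before RefSeq start sites.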

Additional observations from a re-analysis of the deposited data

Results flagged for a closer look

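Errfi1 was the member whose responses differed between groups by a test of the difference itself. At 2 h the log2 response of Cn-Ctl exceeded that of SM-Cn-/- by 2.00 (adjusted p = 0.0483) and the responses differed between CsA and WT by −1.79 (adjusted p = 0.0400). Neither 2 h call was stable: the first was lost under 4 of 9 alternatives and without 9 of 11 libraries in turn, and the second under 2 of 9 and without 7 of 12. At 24 h the response differed between CsA and WT by −1.43 (adjusted p = 0.00758), which was kept under all 9 alternatives and without each of the 12 libraries. In both experiments the untreated level was higher in the group with the smaller response, by means of 106 in SM-Cn-/- against 62.4 in Cn-Ctl and 96.3 in CsA against 59.7 in WT, so each difference in response combines a difference before and one after Ang-II.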

How the results depend on the processing

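Of 48 member differences that passed, 26 did so under every alternative and without each library in turn, and none changed sign. The replicate numbers were not treated as pairs in the main fit. Deviations of same-numbered libraries correlated with a median r of 0.086 (71 pairs, genotype experiment) and 0.013 (45 pairs, CsA experiment). For libraries of different number the medians were −0.075 (140 pairs) and −0.0040 (90 pairs). Low medians do not exclude a pairing. Causes of the changes below were not tested.

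Counts of members passing moved as follows. DESeq2 gave 2 instead of 1 for SM-Cn-/- at 2 h and for the genotype difference in response at 2 h, 1 instead of 0 for that at 6 h and for 6 h against 2 h in both genotypes, 1 instead of 2 for 24 h against 2 h in Cn-Ctl, 4 instead of 2 between untreated CsA and WT, and 2 instead of 1 for the CsA difference in response at 24 h and for 24 h against 2 h in WT. edgeR gave 0 instead of 1 for the genotype difference in response at 2 h, and 1 instead of 2 for 24 h against 2 h in Cn-Ctl and for CsA at 24 h. Testing every gene gave 0 and 1 for the first and last of these, and a mean signal of at least 5 gave 1 for 6 h against 2 h in Cn-Ctl.

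With the compared groups alone the counts were 1 for Cn-Ctl at 24 h, 2 for SM-Cn-/- at 2 h, 1 between genotypes at 6 and at 24 h, 2 for their difference in response at 2 h, 1 and 2 for 24 h against 2 h in Cn-Ctl and SM-Cn-/-, 1 for CsA at 24 h, and 4, 0 and 0 between CsA and WT untreated, at 2 h and at 24 h. Quantile normalization gave 1 between genotypes at 2 and at 6 h, 0 for their difference in response at 2 h, 1 for 24 h against 2 h in Cn-Ctl, and 0 for CsA against WT at 2 h and for their difference in response at 2 h. The replicate block gave 0 for both differences in response at 2 h (Errfi1 1.91 and −1.79, adjusted p = 0.0611 and 0.0525), 1 for 6 h against 2 h in both genotypes and 1 for CsA at 24 h. List genes between CsA and WT at 2 h numbered 7, with 0 for the compared groups alone and 2 under quantile normalization or the block, and the block gave 2 instead of 1 for SM-Cn-/- at 2 h. Over all genes tested, 183 of 13741 and 163 of 14424 passed by limma in these comparisons, in either direction.

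Without 1 library the counts ranged over 0 to 3 for Cn-Ctl at 24 h, 1 to 2 and 0 to 1 for SM-Cn-/- at 2 and 6 h, 1 to 3, 1 to 2 and 0 to 2 between genotypes at 2, 6 and 24 h, 0 to 1 for their difference in response at 2 and at 24 h, 1 to 2 and 0 to 1 for 24 h and 6 h against 2 h in Cn-Ctl, 0 to 1 for 6 h against 2 h in SM-Cn-/-, 0 to 2 for CsA at 24 h, 1 to 1, 0 to 1 and 1 to 4 between CsA and WT untreated, at 2 h and at 24 h, 0 to 1 and 1 to 3 for their difference in response at 2 and 24 h, and 1 to 2 for 24 h against 2 h in WT. The counts also ranged over 4 to 6 for WT at 24 h and 2 to 3 for 24 h against 2 h in CsA. The count for Cn-Ctl at 6 h moved only without the untreated replicate 2, which left 1 library in that group. Signs turned in 3 differences that had not passed: Egfr at 6 h in Cn-Ctl (−0.051 to 0.84), Hbegf at 6 h against 2 h in Cn-Ctl (−0.75 to 0.053) and Egfr at 24 h in CsA (−0.0041 to 0.32).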
